A study of Mus musculus with 6 samples.

Results

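NF-κB is a family of dimeric transcription factors that T cells hold in an inactive state until their antigen receptor is engaged. Inhibitors of the IκB type bind the dimers in the cytoplasm. Signaling from the receptor activates the IκB kinase (IKK), the inhibitors are degraded and the dimers move to the nucleus. In activated T cells NF-κB is known for driving survival and cytokine genes, and several of its own subunits and inhibitors are among its targets, which gives feedback. The members described here were the 5 genes for the subunits (Nfkb1, Nfkb2, Rel, Rela and Relb) and 5 genes for inhibitors (Nfkbia, Nfkbib, Nfkbie, Nfkbid and Nfkbiz), chosen by gene symbol from the deposited normalized table. All 10 listed genes were found among its 13564 genes, and all 10 passed the filter on low counts used for the test.

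RNA was sequenced from 3 Foxo1TKO and 3 Foxo1Ctrl cultures. Foxo1TKO mice were CD4-cre Foxo1 fl/fl and lost Foxo1, a forkhead transcription factor that holds T cells in quiescence, from the double-positive stage of thymic development, in CD4 and CD8 T cells alike. Foxo1Ctrl mice carried the same floxed Foxo1 alleles without the Cre recombinase. Both were C57BL/6J by their labels, carried a Foxp3-GFP reporter and were young adults, and the age of the individual donors is not given in the sources used here. Naive CD4 T cells (CD44-/low, Foxp3-) from lymph nodes were sorted, then activated over 4 days by anti-CD3 antibody in solution (0.1 µg/ml) beside 250000 splenocytes of CD3eKO mice, a strain without T cells. The comparison asked how the loss of Foxo1 changed the transcriptome of activated CD4 T cells. The sources used here do not say if splenocytes were removed before RNA was prepared, or if the cultures of a genotype came from separate animals, so p-values measure only the spread between these libraries.

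Expected counts summed to between 14783890 and 19675447 per library. Foxo1 stood at 85.4, 46.5 and 115 normalized counts in Foxo1TKO replicates 1 to 3 and at 1529, 2285 and 1598 in Foxo1Ctrl, a 21.8-fold lower level (log2 fold change -4.45, SE 0.36, edgeR adjusted p = 0.000195), so every library followed its label. T cell genes were abundant, with a summed level of 11480 to 13225 TPM over 11 genes in Foxo1TKO and 13096 to 14855 in Foxo1Ctrl, and 3 of the 11 were lower in Foxo1TKO. The 12 B cell markers summed to 9.62 to 11.8 TPM in Foxo1TKO and to 31.5 to 37.2 in Foxo1Ctrl, and 5 of the 9 that could be tested were lower in Foxo1TKO. Pax5, a defining B cell factor, stayed at 0.15 TPM or less. The highest of the 12 was Cd79b, at 3.09 to 4.91 TPM in Foxo1TKO and 12.1 to 15.3 in Foxo1Ctrl. The 6 erythroid markers summed to 35.4 to 65.0 TPM in Foxo1TKO and to 40.2 to 69.6 in Foxo1Ctrl. Dendritic cell markers summed to 3.95 TPM or less in every library and NK cell markers to 4.36 or less. Of the 11 macrophage markers, 10 were under 1 TPM in every library, among them Adgre1 and Csf1r, and 2 were at 0 throughout. Their sum, 4.43 to 5.84 TPM in Foxo1TKO and 2.41 to 3.40 in Foxo1Ctrl, was mostly Cd68. The 6 neutrophil markers summed to 0.28 to 5.47 TPM in Foxo1TKO and to 0 to 0.31 in Foxo1Ctrl. The 2 CD8 T cell markers summed to 4.27 to 6.48 TPM in Foxo1TKO and to 6.87 to 8.29 in Foxo1Ctrl. Of 12 proliferation genes, 4 rose in Foxo1TKO. NF-κB genes are also used by B cells, myeloid cells and dividing T cells. The part of these cell types and of proliferation in the results below was not tested, and in bulk RNA fewer cells of a type and less RNA per cell cannot be told apart.

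By the test described below, 11.8% of all genes tested were called higher in Foxo1TKO cells and 12.4% lower. Among the members, Rel, Nfkb2 and, at the threshold, Nfkbid were called higher and none was called lower. Stretches of RefSeq promoter sequence (GRCm38.p6) are given for these 3 genes, and for Nfkbia, the most abundant member, as a comparison. Each is the 250 bases before a transcription start, with capitals on every match, on either strand, to the κB consensus, the motif that NF-κB dimers bind. Where a gene has several starts, one with a match is shown. Of the starts not shown, those of Nfkbid had no match and those of Nfkb2 did. Rel lies at chr11:23770970-23771219 (minus strand), Nfkb2 at its most upstream start at chr19:46304487-46304736 (plus strand), Nfkbid at its middle start at chr7:30422156-30422405 (plus strand) and Nfkbia at chr12:55492648-55492897 (minus strand).
Rel: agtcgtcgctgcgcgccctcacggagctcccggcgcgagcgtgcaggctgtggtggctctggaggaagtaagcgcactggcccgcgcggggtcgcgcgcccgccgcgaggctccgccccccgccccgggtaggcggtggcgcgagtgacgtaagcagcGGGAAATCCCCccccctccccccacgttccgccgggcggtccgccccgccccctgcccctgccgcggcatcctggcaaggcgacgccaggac
Nfkb2: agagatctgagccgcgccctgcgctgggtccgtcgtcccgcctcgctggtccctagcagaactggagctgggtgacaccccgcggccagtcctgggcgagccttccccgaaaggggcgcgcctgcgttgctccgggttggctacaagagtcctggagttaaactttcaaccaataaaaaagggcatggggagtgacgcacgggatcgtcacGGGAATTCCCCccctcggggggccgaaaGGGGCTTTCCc
Nfkbid: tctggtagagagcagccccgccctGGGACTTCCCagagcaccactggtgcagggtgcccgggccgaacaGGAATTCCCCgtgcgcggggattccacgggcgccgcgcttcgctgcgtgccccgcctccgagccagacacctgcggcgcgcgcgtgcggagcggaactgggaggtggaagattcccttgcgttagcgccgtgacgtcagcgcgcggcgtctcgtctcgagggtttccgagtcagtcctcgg
Nfkbia: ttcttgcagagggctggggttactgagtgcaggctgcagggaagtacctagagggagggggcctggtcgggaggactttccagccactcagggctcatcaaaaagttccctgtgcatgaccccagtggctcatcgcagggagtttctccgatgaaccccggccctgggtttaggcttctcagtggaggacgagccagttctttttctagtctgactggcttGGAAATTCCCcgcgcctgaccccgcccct

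The Rel stretch held overlapping matches that began at -92 and -91, counted from the start of transcription. The Nfkb2 stretch held overlapping matches from -39 and -38 and a separate match from -11. In Nfkbid the matches began at -226 and -181, and in Nfkbia at -29. Promoters of 250 bases before to 50 after the start were held for 7 of the 10 members, as 11 promoters, and 5 of these genes (Nfkb2, Rel, Nfkbia, Nfkbie and Nfkbid) had a κB match in at least 1 promoter. Counted by promoter, 7 of 11 had a match, against 4.51% of all 32851 promoters of that length. Nfkb2 promoters 2 and 3 overlap and share a match, and several promoters belong to the same gene, so the 11 are not independent. Rela and Nfkbib had none. The forkhead core TGTTTAC, searched on both strands, was in 0 of the 11 and in 3.65% of all promoters. At a share that low, 11 promoters are too few to show a lack of this motif. These matches are a description of the letters, and the data hold no measurement of binding. Nfkb1, Relb and Nfkbiz had no promoter in the table.

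Differences between genotypes were tested with edgeR's quasi-likelihood test over 13691 genes, and a gene was called at a Benjamini-Hochberg adjusted p under 0.05. Normalized counts are counts scaled to a common library size by the TMM method. They are used for comparisons of a gene between libraries, and TPM, which are per transcript length, for comparisons between genes. Of the 10 members, 3 were called higher (30%) and 0 lower. Over all genes tested 11.8% were called higher and 12.4% lower, and so calls were common in this comparison. The median log2 fold change was 0.37 over the members and 0.01 over all genes. Without regard to sign, the median absolute log2 fold change was 0.37 over the members and 0.46 over all genes, so members did not move further than genes in general. At an unadjusted p under 0.05 the same 3 members passed, and DESeq2 also called 3 higher and 0 lower. Every Foxo1TKO library was above every Foxo1Ctrl library for 6 members, against 21.5% of all genes, and below for 1 member, against 21.2%. In the deposited normalized signal these counts were 5 and 0, since Nfkbib and Nfkbiz overlapped there.

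**Figure D1:**
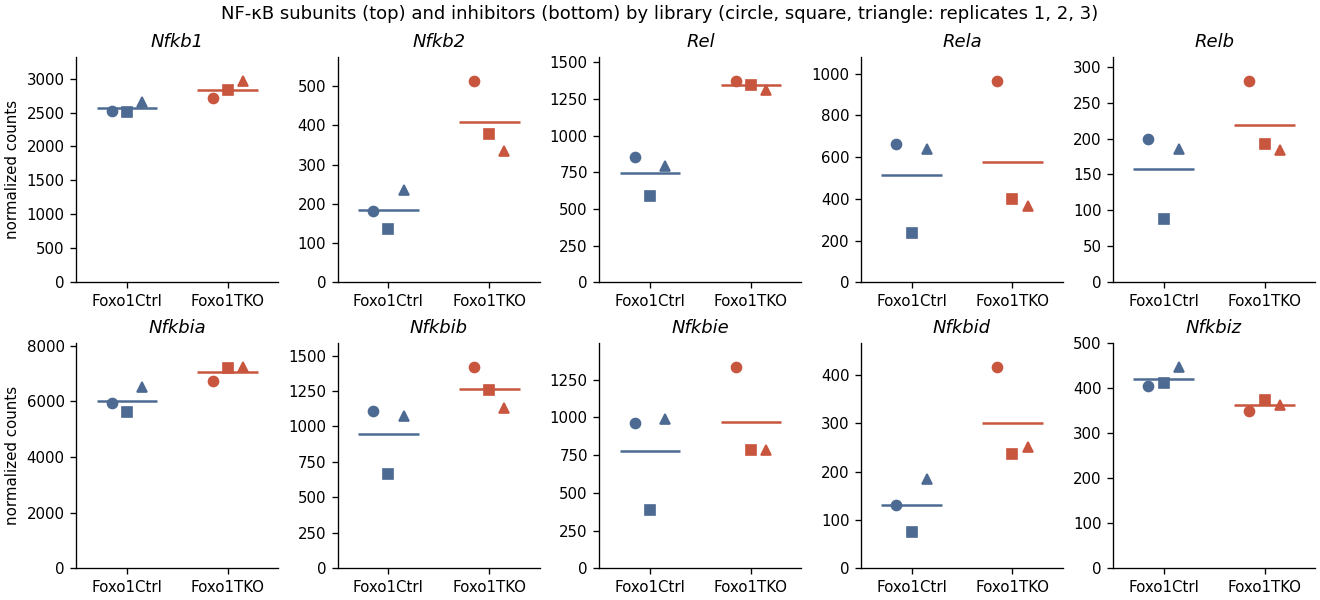
Normalized counts of the 10 members (vertical axes, each from 0) in the 3 Foxo1Ctrl (blue) and 3 Foxo1TKO (red) libraries, where circles, squares and triangles are replicates 1, 2 and 3 and horizontal lines the genotype means. Rel lay between 1313 and 1373 in Foxo1TKO and between 589 and 856 in Foxo1Ctrl, and the ranges of Rela, Relb and Nfkbie overlapped.

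The subunits that carry a transactivation domain were Rel, Rela and Relb. Rel encodes c-Rel, the subunit most closely tied to lymphocyte activation, and lies on chromosome 11 (GRCm38, 23736847 to 23770970, minus strand). It stood at 1373, 1349 and 1313 normalized counts in Foxo1TKO replicates 1 to 3 and at 856, 589 and 795 in Foxo1Ctrl. The Foxo1TKO libraries lay close together and all above the highest control. Rel rose 1.80-fold (log2 fold change 0.85, SE 0.18, edgeR adjusted p = 0.0115). The call was lost when Foxo1TKO replicate 2 was left out (log2 fold change 0.86, edgeR adjusted p = 0.0539) and held without each of the other libraries.

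Rela encodes RelA, the main transactivating partner in the canonical pathway (chromosome 19, 5637483 to 5648130, plus strand). It stood at 964, 398 and 366 normalized counts in Foxo1TKO and at 664, 234 and 638 in Foxo1Ctrl. The genotypes overlapped widely, with the highest value in Foxo1TKO replicate 1 and the lowest in Foxo1Ctrl replicate 2. Its log2 fold change was 0.17, with a 95% interval of -0.95 to 1.29 (edgeR adjusted p = 0.835), so these libraries exclude neither a marked fall nor a marked rise. It turned to -0.42 without Foxo1TKO replicate 1 and to -0.16 without Foxo1Ctrl replicate 2. Relb encodes the partner of the processed Nfkb2 product in the non-canonical pathway (chromosome 7, 19606217 to 19629438, minus strand). It stood at 280, 193 and 185 normalized counts in Foxo1TKO and at 199, 88.0 and 186 in Foxo1Ctrl, and the genotypes overlapped. Its log2 fold change was 0.47 with an interval of -0.32 to 1.27 (edgeR adjusted p = 0.362).

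Nfkb1 and Nfkb2 encode precursors whose carboxy-terminal ankyrin repeats act as an inhibitor until processing releases a DNA-binding subunit. Nfkb2 (chromosome 19, 46304320 to 46312385, plus strand) stood at 513, 378 and 334 normalized counts in Foxo1TKO and at 182, 136 and 236 in Foxo1Ctrl. All Foxo1TKO libraries were above all controls, with Foxo1TKO replicate 1 highest. Nfkb2 rose 2.20-fold (log2 fold change 1.14, SE 0.27, edgeR adjusted p = 0.0189). The call was lost without Foxo1TKO replicate 1 (edgeR adjusted p = 0.0505), without Foxo1TKO replicate 2 (0.0595) or without Foxo1Ctrl replicate 1 (0.0688), at log2 fold changes of 0.94, 1.20 and 1.10. Exons of Nfkb2 overlap Psd and AC114539.1 on the opposite strand, and whether the counting used strand is not given in the sources used here, so reads of these genes may be mixed.

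Nfkb1 (chromosome 3, 135584655 to 135691547, minus strand) was the subunit with the highest level. It stood at 2710, 2830 and 2962 normalized counts in Foxo1TKO and at 2526, 2512 and 2648 in Foxo1Ctrl. The ranges did not overlap, but the difference was small and did not pass the test (log2 fold change 0.15, 95% interval -0.15 to 0.44, edgeR adjusted p = 0.458).

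**Figure D2:**
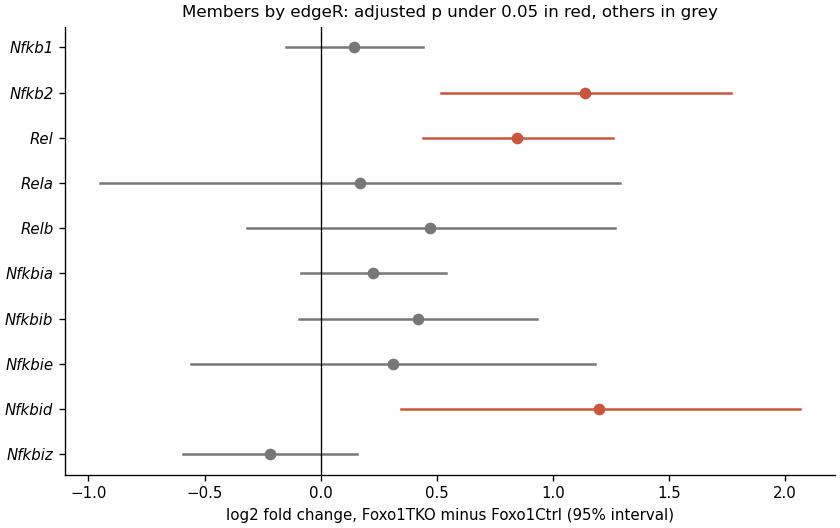
The log2 fold change of each member in Foxo1TKO against Foxo1Ctrl (horizontal axis) with its 95% interval from edgeR, red for an adjusted p under 0.05 and grey otherwise. Rel, Nfkb2 and Nfkbid lie above 0, and the interval of Rela reaches from -0.95 to 1.29.

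The cytoplasmic inhibitors are Nfkbia (IκBα), Nfkbib (IκBβ) and Nfkbie (IκBε), which mask the nuclear import of the dimers until they are degraded. Nfkbia (chromosome 12, 55489410 to 55492647, minus strand), an early target of NF-κB itself, stood at 6729, 7206 and 7230 normalized counts in Foxo1TKO and at 5928, 5620 and 6533 in Foxo1Ctrl. The ranges did not overlap, and the difference did not pass the test (log2 fold change 0.23, 95% interval -0.08 to 0.54, edgeR adjusted p = 0.267). Nfkbib (chromosome 7, 28758251 to 28767512, minus strand) stood at 1418, 1255 and 1128 in Foxo1TKO and at 1108, 662 and 1074 in Foxo1Ctrl. Its ranges came close without overlapping, with Foxo1Ctrl replicate 2 far below the other libraries (log2 fold change 0.42, interval -0.09 to 0.93, edgeR adjusted p = 0.216). Exons of Nfkbib overlap Ccer2 and Sirt2 on the opposite strand. Nfkbie (chromosome 17, 45555703 to 45563169, plus strand) stood at 1333, 786 and 783 in Foxo1TKO and at 966, 384 and 988 in Foxo1Ctrl. The genotypes overlapped (log2 fold change 0.31, interval -0.56 to 1.18, edgeR adjusted p = 0.599), and without Foxo1Ctrl replicate 2 the value was -0.0023.

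The nuclear inhibitors Nfkbid (IκBNS) and Nfkbiz (IκBζ) bind NF-κB on DNA, and each is known to repress some of its targets and to help induce others. Nfkbid (chromosome 7, 30421732 to 30428746, plus strand) stood at 417, 236 and 252 normalized counts in Foxo1TKO and at 131, 75.5 and 185 in Foxo1Ctrl. All Foxo1TKO libraries were above all controls, and Foxo1TKO replicate 1 stood apart. Nfkbid rose 2.30-fold, but its call was at the threshold (log2 fold change 1.20, SE 0.37, edgeR adjusted p = 0.0495). It held only without Foxo1Ctrl replicate 3 (edgeR adjusted p = 0.0432). The adjusted p was 0.126, 0.0838 and 0.0759 without Foxo1TKO replicate 1, 2 or 3, and 0.130 and 0.0826 without Foxo1Ctrl replicate 1 or 2, at log2 fold changes of 0.90 to 1.53 over the 6 edgeR fits.

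Nfkbiz (chromosome 16, 55811375 to 55838899, minus strand) was the only member with a negative value. It stood at 349, 374 and 362 normalized counts in Foxo1TKO and at 404, 411 and 447 in Foxo1Ctrl, with no overlap. The difference did not pass the test (log2 fold change -0.22, 95% interval -0.59 to 0.15, edgeR adjusted p = 0.374), and it was -0.08 once the change in transcript length given below was taken into account.

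Set side by side per transcript length, the members spanned a wide range of levels. Nfkbia was the most abundant at 513, 505 and 472 TPM in Foxo1TKO and at 429, 344 and 469 in Foxo1Ctrl, with no overlap with the next member. Nfkb1 followed at 87.3 to 88.5 TPM in Foxo1TKO and 66.0 to 80.1 in Foxo1Ctrl, and Nfkbib at 63.9 to 97.7 and 35.3 to 71.1, and these ranges overlapped each other in both genotypes. Nfkbie came next, without overlap with Nfkbib, at 21.3 to 42.8 TPM in Foxo1TKO and 9.62 to 29.6 in Foxo1Ctrl. From Nfkbie down, each member overlapped the next in both genotypes, with each genotype in its own order of mean TPM. The Foxo1TKO order is used below, and the order in Foxo1Ctrl differed. These lower members were Rela (9.05 to 30.0 TPM in Foxo1TKO and 5.20 to 18.4 in Foxo1Ctrl), Rel (11.1 to 13.7 and 4.57 to 8.01), Nfkbid (8.53 to 16.8 and 2.33 to 6.79), Nfkb2 (6.78 to 12.4 and 2.51 to 5.17), Nfkbiz (7.61 to 8.30 and 6.84 to 9.10) and Relb (5.44 to 10.3 and 2.73 to 6.22). By mean TPM, Nfkb2 was the lowest member in Foxo1Ctrl and Relb the lowest in Foxo1TKO.

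**Figure D3:**
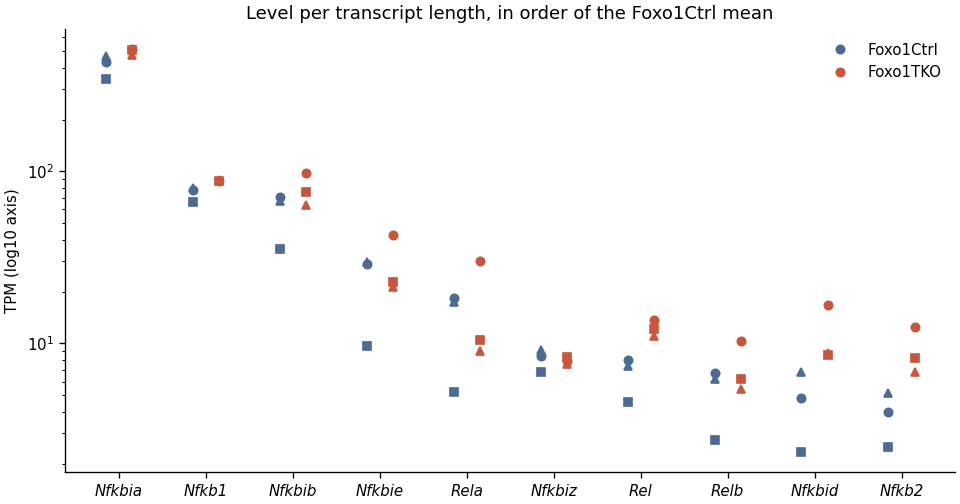
TPM of each member (log10 vertical axis) by library, in the order of the Foxo1Ctrl mean, with Foxo1Ctrl in blue, Foxo1TKO in red and a marker shape for each replicate number. Nfkbia stands above all other members at 344 TPM or more in every library. In Foxo1Ctrl, the members from Nfkbie down overlap their neighbors in this order.

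The summed level of the inhibitors was 4.39, 5.0 and 4.74 times that of the subunits in Foxo1TKO and 4.71, 4.91 and 5.0 times in Foxo1Ctrl. The means were 4.71 ± 0.30 and 4.88 ± 0.15 (SD, n = 3), and the ranges overlapped. Nfkbia made up 75.7% to 82.3% of the summed inhibitor TPM in Foxo1TKO and 79.1% to 86.4% in Foxo1Ctrl. Among the subunits, Nfkb1 made up 57.0% to 73.2% in Foxo1TKO and 67.8% to 81.5% in Foxo1Ctrl. The share of Rel was 8.89% to 9.77% in Foxo1TKO and 5.64% to 6.96% in Foxo1Ctrl, and that of Nfkb2 was 5.61% to 8.03% and 3.10% to 4.45%, with no overlap for either. These shares use the same counts as the fold changes and are no separate evidence.

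The spread of the members within a genotype differed widely. Nfkb1, Nfkbiz and Nfkbia had an SD within genotypes of 0.05, 0.06 and 0.09 on the log2 scale, at percentiles 0.599, 1.15 and 3.29 of all genes tested. Rela, Nfkbie, Nfkbid and Relb had SDs of 0.81, 0.63, 0.56 and 0.51, at percentiles 90.5, 82.6, 77.2 and 73.4. In Foxo1TKO, replicate 1 was the high library for these 4 genes, and in Foxo1Ctrl, replicate 2 was the low library. The same libraries stood apart by GC content. Across 13679 genes the log2 level, relative to the genotype mean, changed by 0.26, -0.10 and -0.16 for each 10 points of transcript GC content in Foxo1TKO replicates 1 to 3, and by 0.18, -0.32 and 0.14 in Foxo1Ctrl. The 6 members with the highest GC content (55.7% to 60.5%) were Nfkbie, Nfkbid, Nfkb2, Rela, Relb and Nfkbib, and each was lowest in Foxo1Ctrl replicate 2 and highest in Foxo1TKO replicate 1 within its genotype. Nfkbia, at 55.1%, did not follow this pattern, and Rel, with the lowest GC content (42.5%), was also lowest in Foxo1Ctrl replicate 2.

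**Figure D4:**
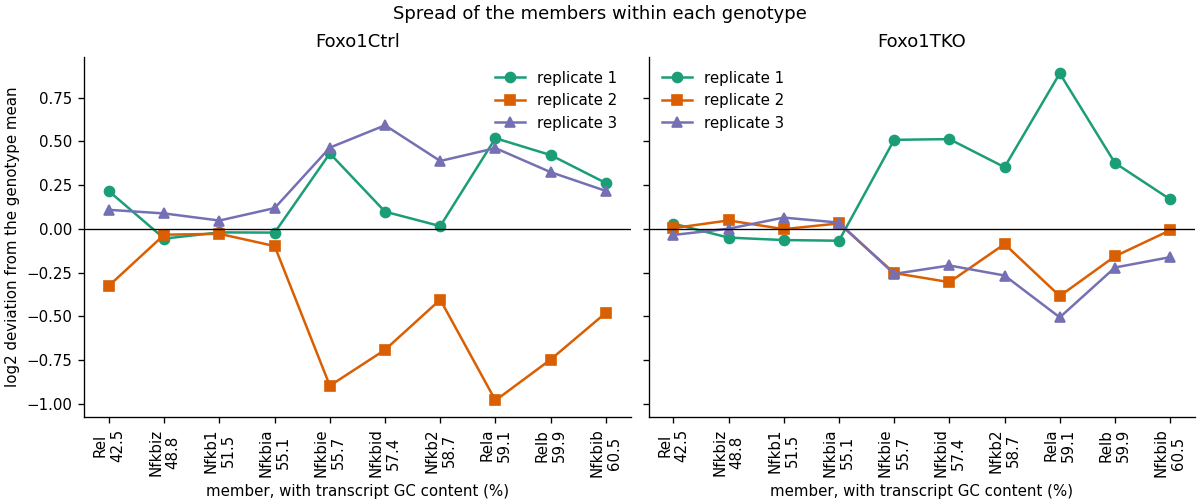
The log2 deviation of each member from its genotype mean (vertical axis) in Foxo1Ctrl (left) and Foxo1TKO (right), with 1 line per replicate and the members ordered by transcript GC content in percent. Rela deviates by 0.89 in Foxo1TKO replicate 1 and by -0.98 in Foxo1Ctrl replicate 2, and Nfkb1, Nfkbiz and Nfkbia stay near 0.

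Relative to the mean of all 6 libraries, the same slopes were 0.35, -0.01 and -0.08 in Foxo1TKO and 0.09, -0.40 and 0.05 in Foxo1Ctrl, so they also differed between libraries of different genotype. When GC content was removed by a smooth curve for each library, a fit added after the data were seen, the members called were Nfkb2, Rel and Nfkbid. Their edgeR adjusted p were 0.00414, 0.0162 and 0.0131, and Rela was at a log2 fold change of 0.06 (edgeR adjusted p = 0.907). In another added fit, the sign of the slope relative to the genotype mean was a term, with Foxo1TKO replicate 1 and Foxo1Ctrl replicates 1 and 3 positive and the other 3 libraries negative. It called 7 members higher, namely Nfkb2, Rel, Rela, Relb, Nfkbib, Nfkbie and Nfkbid, against 21.5% of all genes. This term was set from the same counts, so the p-values of the fit are too small, and it leaves the GC difference between genotypes in place.

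The mean transcript length that RSEM estimates for a gene, weighted by abundance, is meant to follow the mix of its transcripts rather than its level. It was shorter in every Foxo1TKO library than in every control for 3 of the 9 members with more than 1 annotated transcript (33.3%), against 6.05% of 10933 such genes. It was longer throughout for 0 members, and the share of all such genes that were longer was not computed. With 3 libraries against 3 the smallest p of the two-sided exact permutation test is 0.1, so no member can pass 0.05. Nfkbiz was 3393, 3125 and 3092 bases in Foxo1TKO and 3450, 3564 and 3504 in Foxo1Ctrl (exact permutation p = 0.1), with Foxo1TKO replicate 1 close to the controls. Nfkb2 was 3184, 3202 and 3192 bases in Foxo1TKO and 3281, 3235 and 3278 in Foxo1Ctrl, and Nfkbid was 1979, 1981 and 1932 bases and 2031, 2000 and 2021 (exact permutation p = 0.1 for each). All 3 were shorter in Foxo1TKO, with differences of means of -303 bases for Nfkbiz, -72.0 for Nfkb2 and -53.3 for Nfkbid. Which transcripts account for these differences was not analysed here. An effect of the GC slopes of the libraries on these estimated lengths was not tested.

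The other genes of the pathway were taken from lists that were chosen with earlier results of these data known. Of 41 regulators outside the members, 1 rose and 7 fell, with a median log2 fold change of -0.20. Over all genes tested 11.8% were called higher and 12.4% lower. Among 13 genes between the T cell receptor and IKK, Malt1 and Prkcq fell and 11 were not called. Prkcq encodes protein kinase C theta, which acts upstream of Bcl10 and Malt1, and stood at 3376 ± 413 normalized counts in Foxo1TKO and 6613 ± 966 in Foxo1Ctrl (SD, n = 3; log2 fold change -0.97, edgeR adjusted p = 0.00552). Malt1, a paracaspase, stood at 481 ± 73.1 and 1249 ± 52.1 (log2 fold change -1.37, edgeR adjusted p = 0.00115). Bcl10 was at a log2 fold change of 0.09 and did not pass the test. Of the 5 IKK and IKK-related kinases none was called, with values from -0.87 for Ikbke to 0.01 for Chuk.

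In the non-canonical arm, which stabilizes the kinase Map3k14 to drive Nfkb2 processing, 1 of 5 genes was called. Birc3, a ubiquitin ligase that keeps this kinase low, fell by 0.55 on the log2 scale (edgeR adjusted p = 0.0365), and with any library other than Foxo1Ctrl replicate 2 left out the call was lost (0.0635 to 0.144). The Birc3 call was also lost on TPM with limma (adjusted p = 0.154) and without the filter on low counts (edgeR adjusted p = 0.0641). Map3k14 was at -0.62 (edgeR adjusted p = 0.156), Traf2 at 1.03 (0.0746) and Traf3 at 0.62 (0.0845). Of 6 other regulators of nuclear NF-κB, Nkrf, a DNA-binding repressor of NF-κB targets, rose 3.29-fold, from 72.1 ± 19.2 normalized counts in Foxo1Ctrl to 240.3 ± 51.3 in Foxo1TKO (SD, n = 3; edgeR adjusted p = 0.00484). Bcl3, a nuclear IκB relative, was at -0.43 (edgeR adjusted p = 0.475).

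Of the 7 ubiquitin-editing brakes, Cyld and N4bp1 fell and 5 were not called. Cyld, a deubiquitinase that limits signaling to IKK, fell by 0.50 (edgeR adjusted p = 0.0335), and its call was lost with any library other than Foxo1Ctrl replicate 2 left out (0.0792 to 0.126). Removing GC content by the smooth curve also lost the Cyld call (log2 fold change -0.38, edgeR adjusted p = 0.153). N4bp1 fell by 0.77 (edgeR adjusted p = 0.0414), and its call was lost with any library other than Foxo1TKO replicate 3 left out (0.0714 to 0.173). On TPM with limma the calls of Cyld and N4bp1 were lost (adjusted p = 0.107 and 0.101). They were also lost without the filter on low counts (edgeR adjusted p = 0.0751 and 0.0659). Tnfaip3, the best known brake, was at 0.13 (edgeR adjusted p = 0.674). Of 5 factors that promote or oppose the decay of IκB and cytokine transcripts, 2 fell. Arid5a, which is known to stabilize such transcripts, fell from 1780 ± 854 normalized counts in Foxo1Ctrl to 295 ± 196 in Foxo1TKO (SD, n = 3; log2 fold change -2.58, edgeR adjusted p = 0.0129). Zc3h12d, a member of the Regnase family, fell by 1.04 on the log2 scale (edgeR adjusted p = 0.0146). Both calls were lost without Foxo1TKO replicate 2 (edgeR adjusted p = 0.0652 and 0.0690), and without Foxo1TKO replicate 1 the log2 fold change of Arid5a was -3.26. Zc3h12a, which encodes Regnase-1, was at 0.59 (edgeR adjusted p = 0.301).

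The 26 target genes moved in both directions, with 11 called higher, 3 lower and 12 not called, and a median log2 fold change of 0.74. The shares called among all genes tested were 11.8% higher and 12.4% lower. Because the targets were listed with earlier results of these data known, their counts and median are no separate evidence. The genes that rose most were surface receptors and a cytokine. Cd83, an activation marker, was 15.4-fold higher at 6846 ± 1259 normalized counts in Foxo1TKO and 444 ± 78.1 in Foxo1Ctrl (SD, n = 3; edgeR adjusted p = 4.87e-05). The costimulatory receptor Tnfrsf9 was 11.5-fold higher (17345 ± 2049 and 1500 ± 603; edgeR adjusted p = 0.000237), the cytokine Csf2 9.81-fold (181 ± 28.2 and 17.6 ± 10.7; 0.00137) and the TNF receptor Tnfrsf1b 5.16-fold (856 ± 186 and 165 ± 47.2; 0.000954). The other 7 that rose were Gadd45b, Myc, Bcl2a1d, Tnf, Lta, Bcl2a1b and Ccnd2, at log2 fold changes of 0.57 to 2.22, and Bcl2a1b and Bcl2a1d are near-identical copies whose reads cannot be assigned with certainty.

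In the opposite direction, Il2, the T cell growth factor and a classic target of c-Rel, was at 10.3 ± 6.0 normalized counts in Foxo1TKO and 53.2 ± 24.5 in Foxo1Ctrl (SD, n = 3; log2 fold change -2.28, edgeR adjusted p = 0.0160). The Il2 call was lost without Foxo1TKO replicate 2 (edgeR adjusted p = 0.0762), and on log2(TPM + 1) the difference was -1.36. Ltb, a membrane ligand of the TNF family, fell from 41857 ± 5249 to 15755 ± 3359 (log2 fold change -1.41, edgeR adjusted p = 0.00242), and Cflar, an inhibitor of caspase activation, from 2335 ± 327 to 1127 ± 60.7 (-1.05, 0.00280). Il2ra and Cd44 were at -0.02 and 0.02 and did not pass the test.

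**Figure D5:**
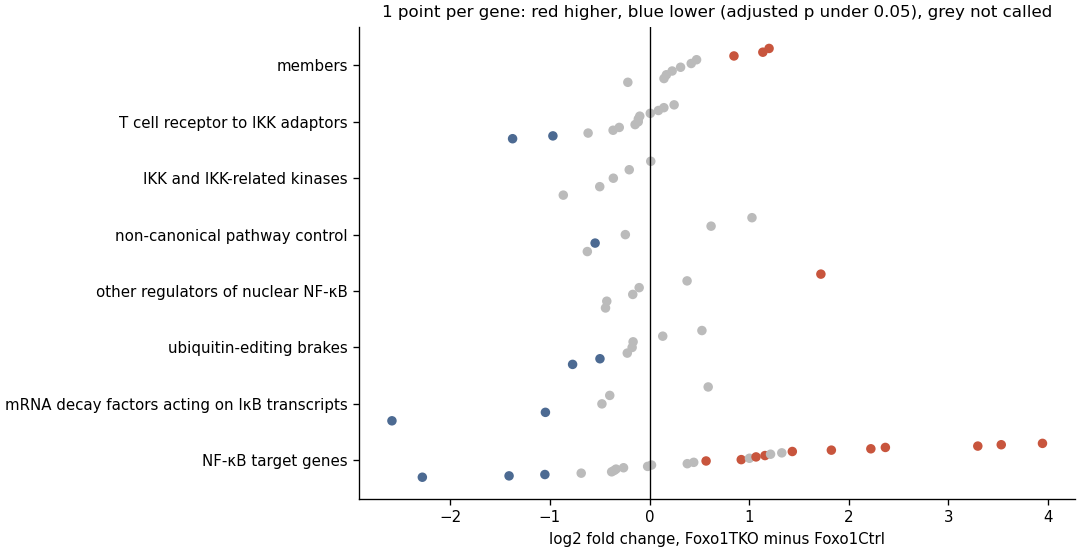
The log2 fold change in Foxo1TKO against Foxo1Ctrl (horizontal axis) of each member and of each gene of the 7 pathway lists (rows), with 1 point per gene, red for genes called higher, blue for genes called lower and grey for genes not called. Targets spread from -2.28 for Il2 to 3.94 for Cd83, and the 3 members called lie between 0.85 and 1.20. The row of mRNA decay factors includes Arid5a, which is known to stabilize transcripts.

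Over the 6 libraries, the genes with the pattern most like that of each called member were sought among 9234 other genes that averaged 100 normalized counts or more. For Rel they were Qdpr, Ankrd46 and Furin (Pearson's r of log2 CPM 0.997, 0.996 and 0.995). For Nfkb2 they were Ubqln4, Ftsj3 and Npepl1 (0.999, 0.997 and 0.996). For Nfkbid they were Nr4a1, Ap2b1 and Egr2 (0.993 for each), of which Nr4a1 and Egr2 are known as early genes of T cell receptor signaling. The 6 points are 3 libraries of each genotype that also differ in depth and GC slope, so these values are a description, and no gene of the members was among the genes most like another.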

How the data were processed

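RNA of 3 Foxo1TKO and 3 Foxo1Ctrl cultures was measured by RNA-seq. The authors aligned reads with STAR 2.7.6a to GRCm38 and counted with RSEM 1.3.1. They deposited expected counts per gene, which are not normalized, together with TPM and transcript lengths, and a table of normalized signal per gene, made with DESeq2 size factors and effective lengths. Strandedness is not given in the sources used here, and the deposited FPKM were not used.

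Samples were grouped by the genotype in their labels. Expected counts were rounded. Genes that reached 10 counts in 3 or more libraries went into edgeR 4.0.16 (R 4.3.3, TMM, quasi-likelihood, prior count 1). The model held genotype alone, with calls at an adjusted p under 0.05. The SE and interval come from the same fit. DESeq2 1.42.0 and limma 3.58.1 (pseudocount 1 on TPM and signal) were alternatives, along with other scalings, filters, thresholds, effective lengths, a replicate block and each library left out. Adjustments for GC content were added after the data were seen. The fits were tested on simulated counts. Positions came from GENCODE M21 and promoters from RefSeq.

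The genes named are all members, Foxo1, up to 4 called genes in each direction from each pathway list by size of change, the 3 genes most like each called member, and defining cell type markers. A few listed genes are not reported here. Further uncalled pathway genes were named after their values were seen, as were the remaining called targets. The members and lists were chosen with earlier results of these data known. Total counts per library, 14783890 to 19675447, set the counting precision. Permutation tests used scipy 1.17.1 and figures matplotlib 3.10.9.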

Additional observations from a re-analysis of the deposited data

How the results depend on the processing

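The 3 members were called higher in every fit to all 6 libraries that did not use TPM or the sign of the GC slope as a term. On TPM with limma the count was 2 (Nfkbid lost, adjusted p = 0.0687), and with the sign of the GC slope as a term it was 7. That term also raised the count of pathway genes called from 22 to 36 and of all genes from 3310 to 5674. Leaving out a library gave 0 to 3 members, 12 to 26 pathway genes and 1592 to 3429 genes in all. No member was called without Foxo1TKO replicate 2, and only Rel without Foxo1TKO replicate 1 or Foxo1Ctrl replicate 1. The direction turned for Rela without Foxo1TKO replicate 1 (-0.42) or Foxo1Ctrl replicate 2 (-0.16; range to 0.42) and for Nfkbie without Foxo1Ctrl replicate 2 (-0.0023; range to 0.51), and the cause was not tested. With normalized counts per kilobase the order of the 10 members was the same as by TPM. The difference in the inhibitor to subunit ratio was -0.17 on TPM and -0.31 to -0.0053 without a library.

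The authors compared cytometry of such cultures by paired tests, but the sources used here do not say if same-numbered libraries are pairs. The numbers were therefore not treated as pairs in the main fit. Same-numbered libraries deviated together at r = 0.43, 0.20 and -0.11. Foxo1TKO replicate 3 and Foxo1Ctrl replicate 2 reached 0.30, so these values cannot decide pairing. With the replicate number as a block, 3 members, 24 pathway genes and 3428 genes were called, and the block changed the call of Cyld (edgeR adjusted p = 0.0558). The 3 libraries per genotype limit the precision for members with a wide spread such as Rela, and Foxo1 was at -3.14 on log2(TPM + 1).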
